A study of Homo sapiens with 9 samples.

Results

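The genes described here are 49 genes of DNA replication, which license origins, assemble and activate the replicative helicase, and build the replication fork. They were chosen by gene symbol, as named components of the licensing and fork machinery, with earlier results of these data known. All 49 were found among the 62700 genes of the tables, and all 49 were among the 14436 genes that passed the filter on low counts, with at least 253 estimated counts for each of them in each library. The measurements come from 9 RNA-seq libraries of HAL-01, a B cell acute lymphoblastic leukemia line with the t(17;19) translocation, which expresses the fusion transcription factor TCF3::HLF. In all 9 libraries the cells stably expressed Cas9 with GFP and had received a guide from a lentiviral vector that carries RFP, and all were harvested on day 13. In 3 libraries the guide was sgRNA_96 and in 3 it was sgRNA_97, both labelled MEF2C-enhancer KO, and in 3 it was SCR1, the scrambled control. The study describes this KO as aimed at an HLF motif within the MEF2C enhancer that TCF3::HLF occupies, but the labels do not tie sgRNA_96 or sgRNA_97 to a guide sequence, so the position of each relative to the motif is not known here. The cells carried their own translocation in every group. HAL-01 is a single leukemia line, and the share of edited cells, the bases that each guide cuts and any removal of unedited cells before RNA extraction were not analysed here. The replicates of each group are numbered 1, 3 and 4, and no source says whether they were separate cultures, so the p-values measure only the spread between these libraries.

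Replication begins with licensing. The origin recognition complex (ORC), CDC6 and CDT1 load the ring-shaped MCM2-7 helicase onto origins, and geminin, the product of GMNN, blocks CDT1 once DNA synthesis has begun. The kinase CDC7 with DBF4, and the factors MCM10, CDC45 and GINS, then turn the loaded ring into a moving helicase, behind which the primase and polymerases, the sliding clamp PCNA and its loader copy both strands. Many of these genes are transcribed in late G1 and S phase under E2F transcription factors, and rapidly dividing leukemia cells express them at high levels.

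Promoter sequences are shown for 8 of the genes, each picked because its promoter holds a short E2F-type motif upstream of the start. RefSeq promoter windows (GRCh38.p14, 250 bases before to 50 after the transcription start) were matched by symbol for 42 of the 49 genes, in 53 windows. MCM4, MCM5, GINS4, POLD3, RPA2, RPA3 and DNA2 had no window. The motifs searched on both strands were TTTGGCGC, TTTCGCGC, TTTCCCGC and TTTGCCGC, of which those ending in GCGC can overlap a match that faces them. The 8 windows below are 100 bases each, lie upstream of the start (matches that reach past the start, as in CDC6, MCM2 and CLSPN, are not shown), read 5′ to 3′ on the strand of the gene, and show the matches in capitals. GINS2, CDT1, MCM7, POLA1, POLA2, PCNA and MCM6 are genes with lower levels in KO, and POLE is the one gene with higher levels.
GINS2 promoter, chr16:85688958-85689057, minus strand: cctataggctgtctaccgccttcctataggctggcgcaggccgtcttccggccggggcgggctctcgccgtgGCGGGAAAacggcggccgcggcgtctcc
CDT1 promoter, chr16:88803682-88803781, plus strand: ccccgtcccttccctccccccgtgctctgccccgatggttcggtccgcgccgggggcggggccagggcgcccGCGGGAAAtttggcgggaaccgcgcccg
MCM7 promoter, chr7:100101398-100101497, minus strand: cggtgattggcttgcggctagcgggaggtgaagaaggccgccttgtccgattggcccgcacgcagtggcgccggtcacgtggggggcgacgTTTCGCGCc
POLA1 promoter, chrX:24693709-24693808, plus strand: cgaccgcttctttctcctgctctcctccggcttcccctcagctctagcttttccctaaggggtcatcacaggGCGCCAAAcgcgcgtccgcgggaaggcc
POLA2 promoter, chr11:65261837-65261936, plus strand: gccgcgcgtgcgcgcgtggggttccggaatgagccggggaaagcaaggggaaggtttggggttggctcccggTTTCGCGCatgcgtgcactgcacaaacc
PCNA promoter, chr20:5126654-5126753, minus strand: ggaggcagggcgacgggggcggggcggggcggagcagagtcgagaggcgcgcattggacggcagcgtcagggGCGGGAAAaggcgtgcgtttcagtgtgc
MCM6 promoter, chr2:135876502-135876601, minus strand: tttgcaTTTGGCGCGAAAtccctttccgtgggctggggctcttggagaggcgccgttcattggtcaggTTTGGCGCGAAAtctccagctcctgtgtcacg
POLE promoter, chr12:132687343-132687442, minus strand: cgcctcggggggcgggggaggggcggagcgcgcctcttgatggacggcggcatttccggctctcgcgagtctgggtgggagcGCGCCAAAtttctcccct
In MCM6 the capitals are 2 runs of 12 bases, each made of 2 facing matches that share GCGC. An E2F-type motif was present in 21 of the 53 windows (39.6%), against 3.31% of all 35116 promoter windows of the same length. The CCAAT box, also searched on both strands, was present in 29 of 53 (54.7%) against 34.6% of all windows, and both kinds occurred together in 22.6% against 1.22%. Whether the 2 kinds occur together more often than their separate shares would give was not tested. A match is a stretch of letters in the reference and not evidence of binding in these cells, and HAL-01 sequence was not examined.

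Levels of a gene are given as CPM, its estimated count scaled to the TMM-normalized library size, and levels of different genes are compared in TPM, which also corrects for transcript length. Differences are log2 fold changes of KO over SCR1, with all 6 KO libraries as a group unless a guide is named, and a gene is said to fall or rise only at an adjusted p under 0.05. Total estimated counts ranged from 17439072 to 29777361 in the SCR1 libraries and from 15212462 to 20565658 in the KO libraries. The first principal component (22.11% of the variance) separated SCR1 from KO. On the second (15.35%), sgRNA_96 replicate 1 scored 30.84 and sgRNA_97 replicate 1 scored -33.99, apart from the other libraries at -4.60 to 9.39, and counts are therefore also given without these 2 libraries. MEF2C, the gene whose enhancer was targeted, was measured at 559.5, 559 and 536 CPM in the SCR1 libraries, 495, 498 and 510.2 CPM with sgRNA_96 and 553, 505 and 495 CPM with sgRNA_97. All KO libraries except sgRNA_97 replicate 1 lay below the lowest control, and the difference did not pass the threshold (log2 fold change -0.12, SE 0.042, adjusted p = 0.062 by edgeR's quasi-likelihood test, adjusted over all tested genes by Benjamini-Hochberg, as is every adjusted p here unless another test is named). DESeq2 gave MEF2C an adjusted p of 0.0265. Without sgRNA_97 replicate 1 it was 0.0143 by edgeR. The B lineage markers CD79A, CD79B, PAX5, EBF1, VPREB1 and IGLL1 were present in every library (means of 77.2 to 1765 TPM in SCR1), and 0 of these 6 were called different (log2 fold changes -0.18 to 0.15).

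The replication genes were lower in MEF2C-enhancer KO than in SCR1 as a group, by a modest amount for each gene. Of the 49 genes 39 fell and 1, POLE, rose at an adjusted p under 0.05, against 10.6% of all tested genes that fell and 10.1% that rose. The other 9 (ORC2, ORC3, ORC4, ORC5, CDC7, DBF4, PRIM1, RPA3 and DNA2) did not pass the test. The fold change was negative for 45 of the 49. The falls were largest among the genes of licensing and helicase activation (GINS2, CDC6, CDT1, ORC1 and GINS4) and smaller for the clamp loader and the single-strand binding proteins. The median log2 fold change was -0.28, against 0.00 over all tested genes, of which 9.32% lay below the median of the replication genes. These are bulk libraries, in which fewer cells in S phase and less RNA per cell cannot be told apart.

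**Figure D1:**
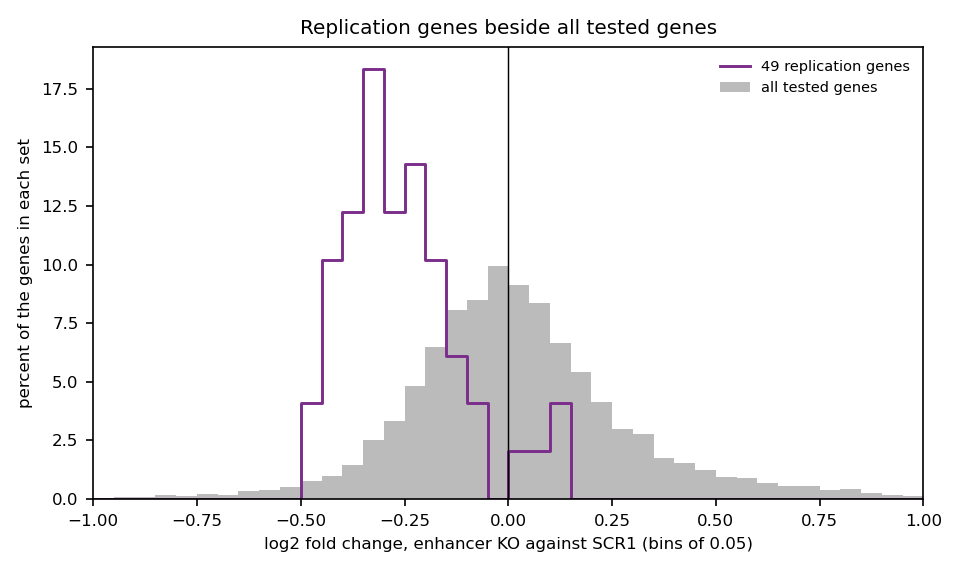
Share of genes in each bin of log2 fold change, MEF2C-enhancer KO against SCR1, for all 14436 tested genes (grey bars) and for the 49 replication genes (line). Most replication genes lie left of 0, at a median of -0.28, while all tested genes centre on 0.00. The axis leaves out 69 genes below -1 and 227 above 1, none of which is a replication gene.

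The shift was seen in each KO library. Relative to the mean log2 CPM of the SCR1 libraries, the median of the 49 genes was -0.32, -0.30 and -0.26 in the sgRNA_96 libraries and -0.29, -0.26 and -0.28 in the sgRNA_97 libraries. Between 43 and 47 of the 49 genes lay below the SCR1 mean in each of these 6 libraries, and between 22 and 29 in each control. For 36 genes all 6 KO values lay below all 3 controls, which held for 10.3% of all tested genes, and for POLE all 6 lay above. Without the 2 libraries apart on the second component, 38 genes fell and 1 rose, against 12.2% of all tested genes that fell in that fit. Leaving out 1 library at a time left between 32 and 38 genes that fell, against 4.93 to 13.1% of all tested genes that fell. The lowest count was that without SCR1 replicate 4, against 6.12% of all tested genes. Of the 39 falls 25 were called in each of 19 alternative fits, and the matching share over all tested genes is not given here. With a gene length offset and by limma on log2(TPM + 1), 27 genes fell, against 5.17% and 4.36% of all tested genes. The 13 calls lost in both of these fits were GINS1, PRIM2, POLD1, POLD3, POLE, POLE2, RFC1, RFC4, RFC5, RPA1, RPA2, TIPIN and TIMELESS (adjusted p = 0.0648 to 0.493).

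**Figure D2:**
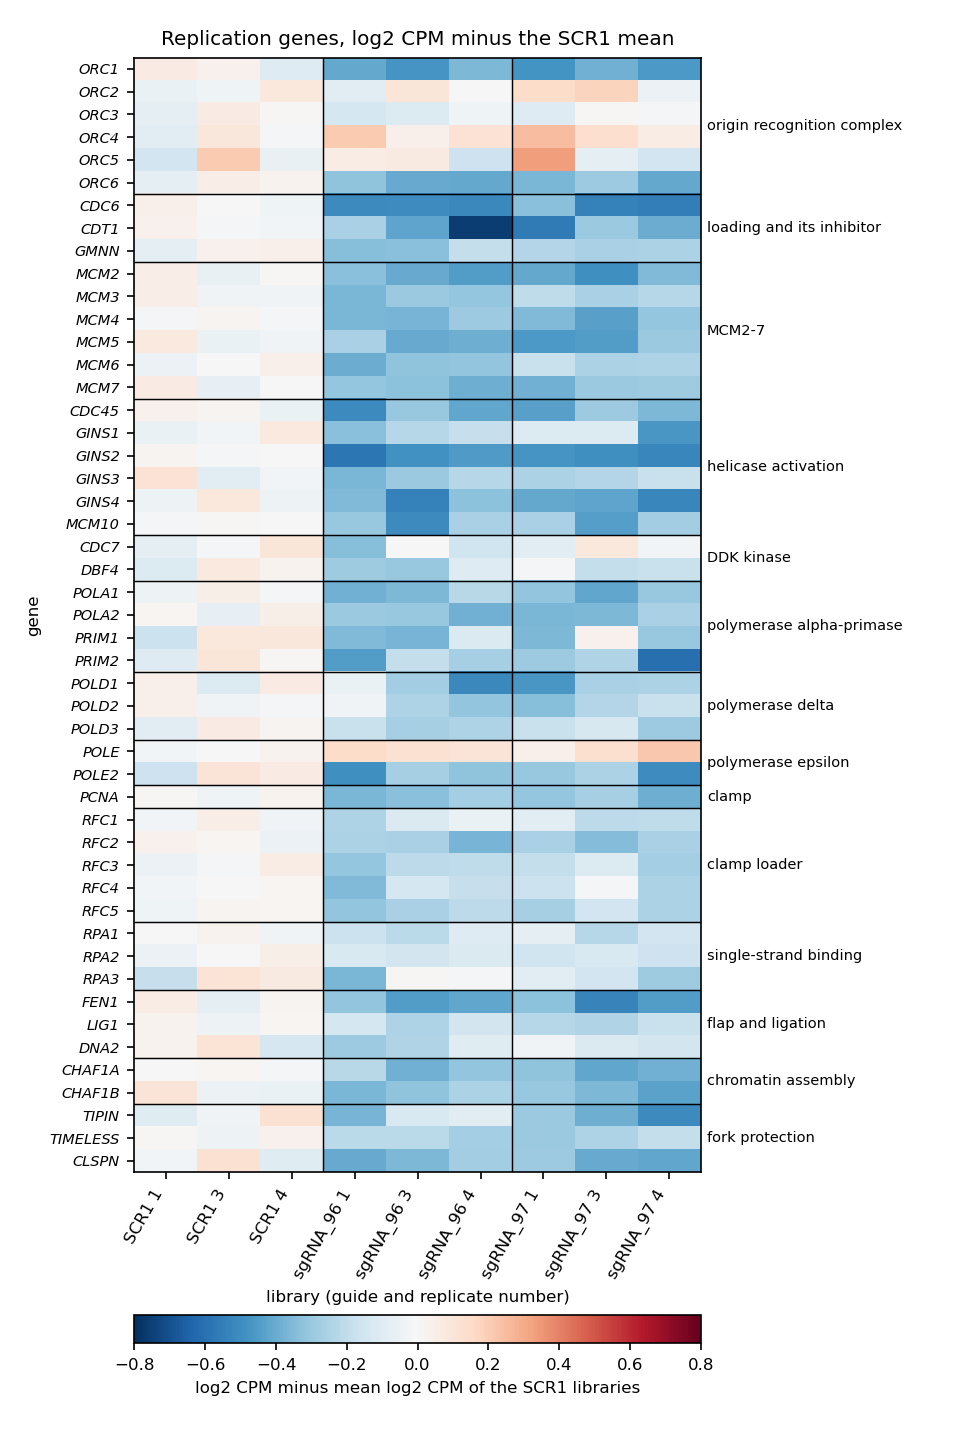
Log2 CPM of each of the 49 genes in each of the 9 libraries, minus the mean of the SCR1 libraries, with genes grouped by complex and libraries by guide. Blue marks a lower and red a higher level. All 6 KO columns are mainly blue. ORC4 and POLE lie above the SCR1 mean in all 6 KO libraries, ORC2 and ORC5 in 3 each, and ORC3, CDC7, PRIM1 and RPA3 in 1 each.

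Within the origin recognition complex 2 subunits fell and 4 did not pass the test. ORC1, the largest subunit and the one whose amount varies through the cell cycle in human cells, was measured at 61.2, 59.8 and 54.3 CPM in the SCR1 libraries, 43.9, 42.03 and 45.4 CPM with sgRNA_96 and 41.9, 44.7 and 42.5 CPM with sgRNA_97. It decreased by 25.7% (log2 fold change -0.43, SE 0.054, adjusted p = 5.33e-05), and no KO library overlapped the controls. ORC6, the smallest subunit, was measured at 74.2, 81.2 and 79.98 CPM in the SCR1 libraries, 62.6, 59.2 and 59.1 CPM with sgRNA_96 and 60.8, 64.2 and 58.98 CPM with sgRNA_97. Its groups did not overlap either, and it fell by 22.4% (log2 fold change -0.37, SE 0.049, adjusted p = 0.000101). The remaining subunits form the core of the complex with ORC1, and their KO and control values overlapped. ORC2 stood at 58.4 ± 2.99 CPM (SD, n = 3) in SCR1 and 60.5 ± 4.55 CPM (SD, n = 6) in the KO libraries, ORC3 at 36.2 ± 1.73 CPM (SD, n = 3) in SCR1 and 34.6 ± 1.45 CPM (SD, n = 6) in the KO libraries, ORC4 at 32.6 ± 2.01 CPM (SD, n = 3) in SCR1 and 35.8 ± 2.01 CPM (SD, n = 6) in the KO libraries and ORC5 at 19.2 ± 2.55 CPM (SD, n = 3) in SCR1 and 19.4 ± 2.64 CPM (SD, n = 6) in the KO libraries. Their log2 fold changes were 0.052 (adjusted p = 0.61), -0.062 (adjusted p = 0.504), 0.14 (adjusted p = 0.154) and 0.020 (adjusted p = 0.92). The ORC4 gene overlaps MBD5 on the opposite strand, whose level rose (log2 fold change 0.34, adjusted p = 0.013). Overlaps here are of whole genes, shared exons were not examined, and no source states whether counting used strand. Whether reads of MBD5 were counted for ORC4 was not tested.

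All 3 genes of MCM loading and its control fell. CDC6, the ATPase that joins ORC at the origin, was measured at 85.5, 83.02 and 81.2 CPM in the SCR1 libraries, 58.4, 58.8 and 58.2 CPM with sgRNA_96 and 66.1, 57.2 and 56.7 CPM with sgRNA_97. Every KO value lay below every control, with sgRNA_97 replicate 1 the highest of the 6, and CDC6 decreased by 28.9% (log2 fold change -0.49, SE 0.052, adjusted p = 1.04e-05). CDT1, which brings MCM2-7 to the origin and whose promoter window is printed above, was measured at 107, 104 and 103 CPM in the SCR1 libraries, 87.4, 78.2 and 61.96 CPM with sgRNA_96 and 70.7, 85.4 and 79.7 CPM with sgRNA_97. The groups did not overlap, although the KO libraries spread more widely than the controls, and CDT1 decreased by 26.3% (log2 fold change -0.44, SE 0.08, adjusted p = 0.00115). GMNN, the inhibitor of CDT1, was at 54.01, 58.2 and 58.5 CPM in SCR1 and from 44.8 through a median of 47.5 to 49.8 CPM in the KO libraries, each given from the lowest to the highest library, as for the genes described by a range hereafter. It fell by 17.02% (log2 fold change -0.27, SE 0.053, adjusted p = 0.00203), without overlap.

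All 6 subunits of the MCM2-7 ring fell, by 17.5% to 24.6%, and for each of them every KO library lay below every control. MCM2 was measured at 310.2, 287 and 302 CPM in the SCR1 libraries, 237, 227 and 219 CPM with sgRNA_96 and 225, 213 and 234 CPM with sgRNA_97. It fell by 24.6% (log2 fold change -0.41, SE 0.044, adjusted p = 1.12e-05). MCM5 was measured at 256, 234 and 237 CPM in the SCR1 libraries, 203, 183 and 185 CPM with sgRNA_96 and 176, 177 and 197 CPM with sgRNA_97. It fell by 22.96% (log2 fold change -0.38, SE 0.051, adjusted p = 0.000101). MCM4 was measured at 519, 534 and 522 CPM in the SCR1 libraries, 408, 406 and 429.6 CPM with sgRNA_96 and 411, 388 and 423 CPM with sgRNA_97. The lowest control of MCM4 was 519 CPM and the highest KO library 429.6 CPM, and it fell by 21.7% (log2 fold change -0.35, SE 0.039, adjusted p = 1.52e-05). MCM7, at 570.0, 596 and 626 CPM in SCR1 and from 456 through a median of 478 to 491 CPM in the KO libraries, had a log2 fold change of -0.33 (adjusted p = 4.28e-05). MCM6, whose promoter holds the paired E2F-type runs, was at 237, 245 and 252 CPM in SCR1 and from 186 through a median of 201 to 216 CPM in the KO libraries, with a log2 fold change of -0.28 (adjusted p = 0.000584). MCM3 was at 419, 419 and 442 CPM in SCR1 and from 330.4 through a median of 351 to 370.0 CPM in the KO libraries, with a log2 fold change of -0.28 (adjusted p = 0.000292). In TPM, which corrects for length, the order of the levels in SCR1 was MCM7 (353 ± 10.2 TPM, SD, n = 3), MCM4 (243 ± 17.1 TPM), MCM3 (210.3 ± 10.4 TPM), MCM5 (177 ± 16.05 TPM), MCM2 (122 ± 2.97 TPM) and MCM6 (90.5 ± 0.786 TPM), and no pair of neighbours overlapped over the 3 libraries. The 6 proteins sit in the ring once each, whereas their RNA levels in TPM differed by several times. The summed level of the 6 subunits was 1194 ± 22.9 TPM (SD, n = 3) in SCR1 and 938 ± 35.3 TPM (SD, n = 6) in the KO libraries, and the highest KO library (997 TPM) was below the lowest control (1168 TPM).

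The 6 factors that convert the loaded ring into the active CDC45-MCM-GINS helicase also fell without exception, without overlap between the groups. GINS2, a GINS subunit, had the largest fall of the 49 genes. It was measured at 99.3, 96.8 and 97.9 CPM in the SCR1 libraries, 65.8, 70.1 and 71.5 CPM with sgRNA_96 and 70.7, 69.7 and 68.3 CPM with sgRNA_97, with all 6 KO libraries close together and below the controls. It decreased by 29.2% (log2 fold change -0.50, SE 0.044, adjusted p = 1.82e-06). GINS4 was measured at 39.7, 43.3 and 39.8 CPM in the SCR1 libraries, 32.03, 28.1 and 32.5 CPM with sgRNA_96 and 30.8, 30.5 and 28.4 CPM with sgRNA_97. It decreased by 25.6% (log2 fold change -0.43, SE 0.063, adjusted p = 0.000227), and its KO values were again all below the controls. CDC45, the helicase cofactor, was measured at 82.3, 81.5 and 77.6 CPM in the SCR1 libraries, 56.5, 65.1 and 60.2 CPM with sgRNA_96 and 59.5, 65.7 and 62.6 CPM with sgRNA_97. It fell by 23.4% (log2 fold change -0.38, SE 0.053, adjusted p = 0.000132). MCM10, an activator of the loaded helicase, was at 91.4, 92.9 and 93.3 CPM in SCR1 and from 65.1 through a median of 75.6 to 77.4 CPM in the KO libraries and fell by 20.9% (log2 fold change -0.34, SE 0.057, adjusted p = 0.000686). GINS3 and GINS1 fell less, with log2 fold changes of -0.26 (adjusted p = 0.00386) and -0.23 (adjusted p = 0.0233). Without SCR1 replicate 4 the adjusted p of GINS1 was 0.124.

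The kinase that triggers this step did not pass the test in either subunit. CDC7, the catalytic subunit, was at 54.7, 56.9 and 61.6 CPM in SCR1 and from 45.6 through a median of 55.4 to 61.2 CPM in the KO libraries, and the groups overlapped (log2 fold change -0.080, adjusted p = 0.49). DBF4, its activating subunit, was measured at 61.4, 70.1 and 67.6 CPM in the SCR1 libraries, 54.5, 53.7 and 61.8 CPM with sgRNA_96 and 65.7, 58.2 and 58.7 CPM with sgRNA_97. The sgRNA_97 replicate 1 and sgRNA_96 replicate 4 values of DBF4 exceeded the lowest control (log2 fold change -0.17, SE 0.065, adjusted p = 0.0675). Without sgRNA_97 replicate 1 the adjusted p of DBF4 was 0.0239, and without both KO libraries numbered 1 it was 0.0364. The DBF4 gene overlaps SLC25A40 on the opposite strand, whose level did not pass the test (log2 fold change -0.059, adjusted p = 0.552).

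**Figure D3:**
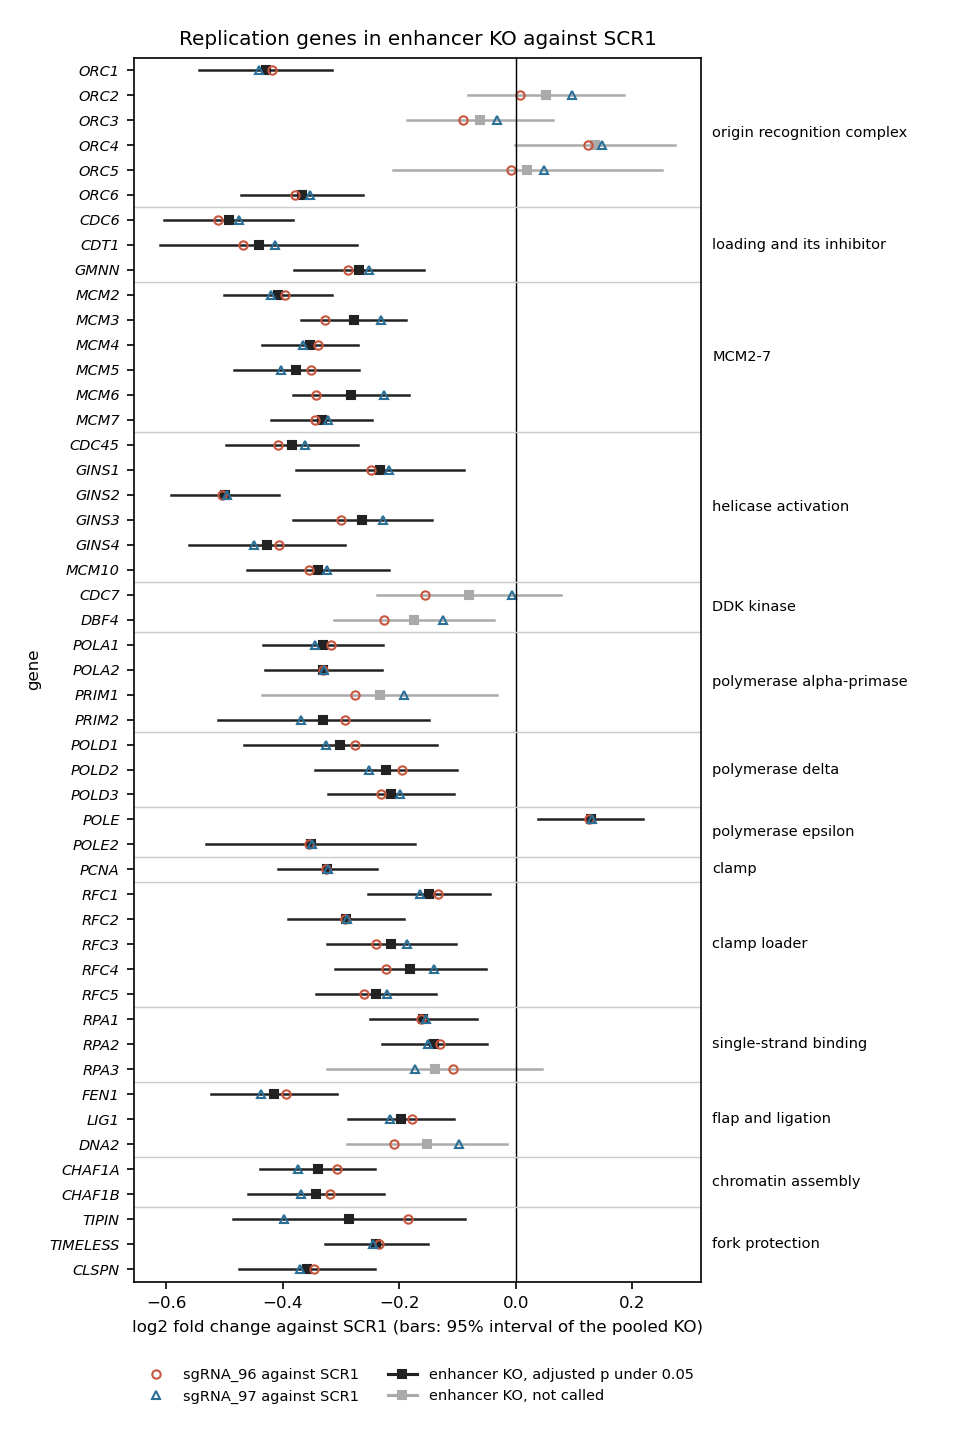
Log2 fold change of each gene against SCR1, grouped by complex. Squares with bars give the 6 KO libraries together with the 95% interval (black, adjusted p under 0.05), and open circles and triangles give sgRNA_96 and sgRNA_97. The values of the 2 guides lie close to each other for most genes, and POLE is the one called gene to the right of 0.

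Among the polymerase subunits chosen for this set 7 of 9 fell, 1 rose and 1 did not pass the test. Polymerase alpha-primase lays down the RNA-DNA primers. Its catalytic subunit POLA1 was at 100.0, 102 and 106 CPM in SCR1 and from 76.96 through a median of 81.2 to 88.2 CPM in the KO libraries, its accessory subunit POLA2 at 76.1, 80.3 and 82.1 CPM in SCR1 and from 60.8 through a median of 63.1 to 66.3 CPM in the KO libraries, and both fell without overlap (log2 fold changes -0.33, adjusted p = 0.00022 and -0.33, adjusted p = 0.000178). PRIM1 and PRIM2 make up the primase. PRIM2, the regulatory subunit, fell as well (log2 fold change -0.33, SE 0.086, adjusted p = 0.0128), with an adjusted p of 0.0578 once SCR1 replicate 3 was left out. PRIM1, the catalytic primase subunit, was measured at 24.7, 29.5 and 29.6 CPM in the SCR1 libraries, 21.8, 21.5 and 25.7 CPM with sgRNA_96 and 21.7, 28.6 and 22.6 CPM with sgRNA_97. Its sgRNA_97 replicate 3 and sgRNA_96 replicate 4 values exceeded the lowest control (log2 fold change -0.23, SE 0.095, adjusted p = 0.0956). Without sgRNA_97 replicate 3 the adjusted p of PRIM1 was 0.0264. The PRIM1 gene overlaps NACA on the same strand, counted at a mean of 19009 per library against 487 for PRIM1. Whether the PRIM1 value depends on how Salmon divided reads between them was not tested.

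Of polymerase delta, which copies the lagging strand, the subunits POLD1, POLD2 and POLD3 fell. POLD4, placed with the other replication genes described below, did not pass the test, and its fold change was positive (log2 fold change 0.19, adjusted p = 0.338). POLD1, the catalytic subunit, was at 91.4, 102 and 104 CPM in SCR1 and from 69.2 through a median of 81.8 to 95.3 CPM in the KO libraries, and sgRNA_96 replicate 1 was above the lowest control (log2 fold change -0.30, SE 0.078, adjusted p = 0.0127). POLD2 and POLD3, accessory subunits, had log2 fold changes of -0.22 (adjusted p = 0.0121) and -0.21 (adjusted p = 0.00746). The call of POLD1 was lost without SCR1 replicate 1 (adjusted p = 0.071) or SCR1 replicate 4 (0.0731), and that of POLD2 without SCR1 replicate 1 (0.0734). With the gene length offset the log2 fold change of POLD1 was -0.15, adjusted p = 0.393, and that of POLD3 was -0.12, adjusted p = 0.297.

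Of polymerase epsilon, which copies the leading strand, POLE rose and POLE2 fell at an adjusted p under 0.05. Its subunits POLE3 and POLE4 were placed with the other replication genes described below. POLE3 fell (log2 fold change -0.27, adjusted p = 0.000862), and POLE4 did not pass the test (log2 fold change -0.30, adjusted p = 0.135). POLE, the catalytic subunit, was measured at 211, 214 and 218 CPM in the SCR1 libraries, 238, 233 and 231 CPM with sgRNA_96 and 221, 235 and 249 CPM with sgRNA_97. Every KO library lay above every control, by 9.31% on average (log2 fold change 0.13, SE 0.042, adjusted p = 0.0417). POLE2, its accessory subunit, was at 20.1, 23.6 and 24.2 CPM in SCR1 and from 15.9 through a median of 18.1 to 18.9 CPM in the KO libraries. Every KO library lay below every control, and POLE2 fell by 21.7% (log2 fold change -0.35, SE 0.085, adjusted p = 0.00814). The rise of POLE was near the threshold: its call was kept in 8 of 19 alternative fits, and in the 6 of 9 fits without 1 library that lost it (those without sgRNA_96 replicate 3, sgRNA_97 replicates 3 and 4, and each SCR1 library) the adjusted p was 0.0573 to 0.169. Its fold change stayed positive in all 19, the lowest being with a length trend offset (0.066, adjusted p = 0.34). The printed POLE window holds an E2F-type match, as does every printed window, because only windows with a match were picked for printing.

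**Figure D4:**
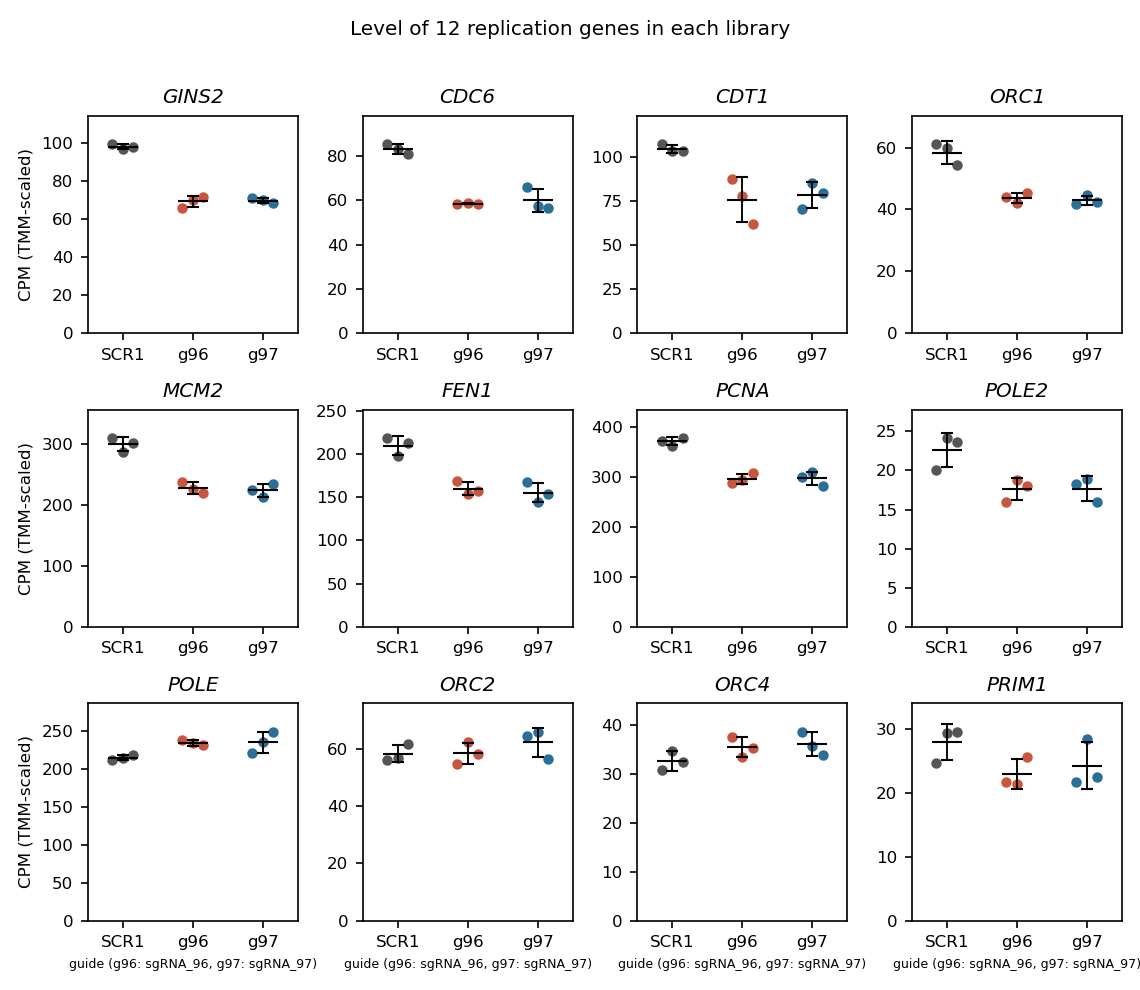
CPM of 12 replication genes in each library, with the mean and SD of each guide. GINS2, CDC6, CDT1, ORC1, MCM2, FEN1, PCNA and POLE2 are lower in all 6 KO libraries than in the 3 SCR1 libraries, POLE is higher in all 6, and ORC2, ORC4 and PRIM1 overlap.

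All 6 genes of the clamp and its loader fell. PCNA, the ring that holds polymerases on DNA, was measured at 374, 363 and 379 CPM in the SCR1 libraries, 288, 295 and 308 CPM with sgRNA_96 and 299.7, 310.0 and 283 CPM with sgRNA_97. All KO libraries lay below the controls, and it fell by 20.1% (log2 fold change -0.32, SE 0.04, adjusted p = 4.82e-05). In TPM it was the most abundant of the 49 genes, at 432 ± 3.11 TPM (SD, n = 3) in SCR1 and 348 ± 15.1 TPM (SD, n = 6) in KO. Among the loader subunits RFC2 had the largest change (log2 fold change -0.29, SE 0.047, adjusted p = 0.000435), followed by RFC5 at -0.24 (adjusted p = 0.00264) and RFC3 at -0.21 (adjusted p = 0.00899). RFC4, at -0.18 (adjusted p = 0.0466), and RFC1, the large subunit, at -0.15 (adjusted p = 0.0417), were near the threshold. Leaving out 1 library lost the call of RFC3 without SCR1 replicate 4 (adjusted p = 0.0628), that of RFC4 without any library other than sgRNA_97 replicate 3 (0.0517 to 0.138) and that of RFC1 without any other than sgRNA_96 replicate 4 or sgRNA_97 replicate 1 (0.0501 to 0.153). The RFC4 gene overlaps EIF4A2 on the opposite strand, which was counted at a mean of 10324 against 1297 for RFC4 and rose (log2 fold change 0.14, adjusted p = 0.0151).

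The single-strand binding proteins fell by little. RPA1 and RPA2, the large and middle subunits of replication protein A, which coats unwound DNA, fell by 10.4% and 9.24% (-0.16, adjusted p = 0.0167 and -0.14, adjusted p = 0.0282 as log2 fold changes). RPA3, the small subunit, was measured at 31.4, 38.4 and 37.4 CPM in the SCR1 libraries, 27.6, 35.8 and 35.4 CPM with sgRNA_96 and 33.4, 32.1 and 29.2 CPM with sgRNA_97, and the groups overlapped (log2 fold change -0.14, SE 0.087, adjusted p = 0.283). The call of RPA1 was lost without SCR1 replicate 1 (adjusted p = 0.0618) or SCR1 replicate 3 (0.0626). That of RPA2 was lost without sgRNA_96 replicate 3, sgRNA_97 replicate 4 or SCR1 replicate 3 or 4 (0.0554 to 0.152).

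Of the genes that finish Okazaki fragments, 2 of 3 fell. FEN1, the endonuclease that removes displaced flaps, was measured at 219, 198 and 213 CPM in the SCR1 libraries, 168, 154 and 157 CPM with sgRNA_96 and 167, 145 and 154 CPM with sgRNA_97. It decreased by 25.03% (log2 fold change -0.42, SE 0.051, adjusted p = 4.28e-05), without overlap between KO and control. The FEN1 gene overlaps FADS2 on the same strand, which fell too (log2 fold change -0.33, adjusted p = 0.000713), and the main FEN1 transcript held 98.4% of the TPM of FEN1 in SCR1. LIG1, the ligase that seals the nicks, was at 153, 159 and 161 CPM in SCR1 and from 133 through a median of 137 to 144 CPM in the KO libraries and fell by 12.7% (log2 fold change -0.20, SE 0.043, adjusted p = 0.00426). DNA2, a nuclease-helicase for long flaps, was measured at 57.2, 60.5 and 51.2 CPM in the SCR1 libraries, 45.96, 47.6 and 52.4 CPM with sgRNA_96 and 55.1, 51.9 and 50.8 CPM with sgRNA_97. The values of sgRNA_96 replicate 4, sgRNA_97 replicate 1 and sgRNA_97 replicate 3 exceeded the lowest control (log2 fold change -0.15, SE 0.065, adjusted p = 0.109). On the TPM scale DNA2 stood at 22.9 ± 2.88 TPM (SD, n = 3) in SCR1 and 23.1 ± 2.85 TPM (SD, n = 6) in KO. With a GC offset its log2 fold change was -0.24, adjusted p = 0.00354.

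Chromatin assembly and fork protection genes fell as well. CHAF1A and CHAF1B, subunits of the chromatin assembly factor that deposits histones on the new DNA, fell without overlap (log2 fold changes -0.34, adjusted p = 0.000115 and -0.34, adjusted p = 0.000444). CHAF1B overlaps MORC3 on the same strand, which rose (log2 fold change 0.24, adjusted p = 0.035). CLSPN, which encodes claspin, the link from stalled forks to the checkpoint kinase, was measured at 76.6, 84.7 and 72.7 CPM in the SCR1 libraries, 58.9, 60.7 and 64.1 CPM with sgRNA_96 and 63.7, 58.8 and 58.4 CPM with sgRNA_97. All KO values were below the controls, and it fell by 21.96% (log2 fold change -0.36, SE 0.055, adjusted p = 0.000311). TIMELESS, a partner of claspin at the fork, was at 122, 127 and 129 CPM in SCR1 and from 103 through a median of 107 to 110.1 CPM in the KO libraries and fell by 15.3% (log2 fold change -0.24, SE 0.042, adjusted p = 0.000932). TIPIN, the partner of TIMELESS, was at 20.01, 20.98 and 23.2 CPM in SCR1 and from 15.03 through a median of 16.96 to 20.1 CPM in the KO libraries, and the groups overlapped (log2 fold change -0.29, SE 0.094, adjusted p = 0.0403). The call of TIPIN was lost in 7 of the 9 fits without 1 library, all except those without sgRNA_96 replicate 3 or 4 (adjusted p = 0.052 to 0.197). With the gene length offset its log2 fold change was -0.15, adjusted p = 0.493.

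Summed in TPM over the genes of each complex within the 49, every KO library lay below every control for 11 of the 14 complexes. The summed level in KO was 76.4% of the SCR1 mean for the loading factors, 78.5% for MCM2-7, 78.5% for helicase activation, 80.6% for PCNA, 81.7% for polymerase alpha-primase and 81.7% for the flap and ligation genes. It was 88.8% for ORC, 93.2% for the CDC7-DBF4 kinase and 90.2% for replication protein A. For ORC the highest KO library (176.9 TPM) lay just below the lowest control (177.6 TPM). Mean TPM in SCR1 and KO was 72.3 and 57.3 for ORC6, 25.4 and 19.0 for ORC1, and 24.8 and 22.5 for ORC3. It was 29.3 and 30.2 for ORC2, 23.3 and 24.8 for ORC4, and 14.8 and 14.8 for ORC5. For polymerase epsilon the sum, of POLE and POLE2 alone, was 105%, 80.9 ± 2.81 TPM (SD, n = 3) in SCR1 and 84.5 ± 8.48 TPM (SD, n = 6) in the KO libraries, with overlapping groups. Over all 49 genes the sum was 3845 ± 76.6 TPM (SD, n = 3) in SCR1 and 3181 ± 71.4 TPM (SD, n = 6) in the KO libraries, and the KO libraries (3107 to 3301 TPM) did not overlap the controls (3788 to 3932 TPM). These sums are descriptions and were not tested, and no matching share for sums over other genes is given here.

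**Figure D5:**
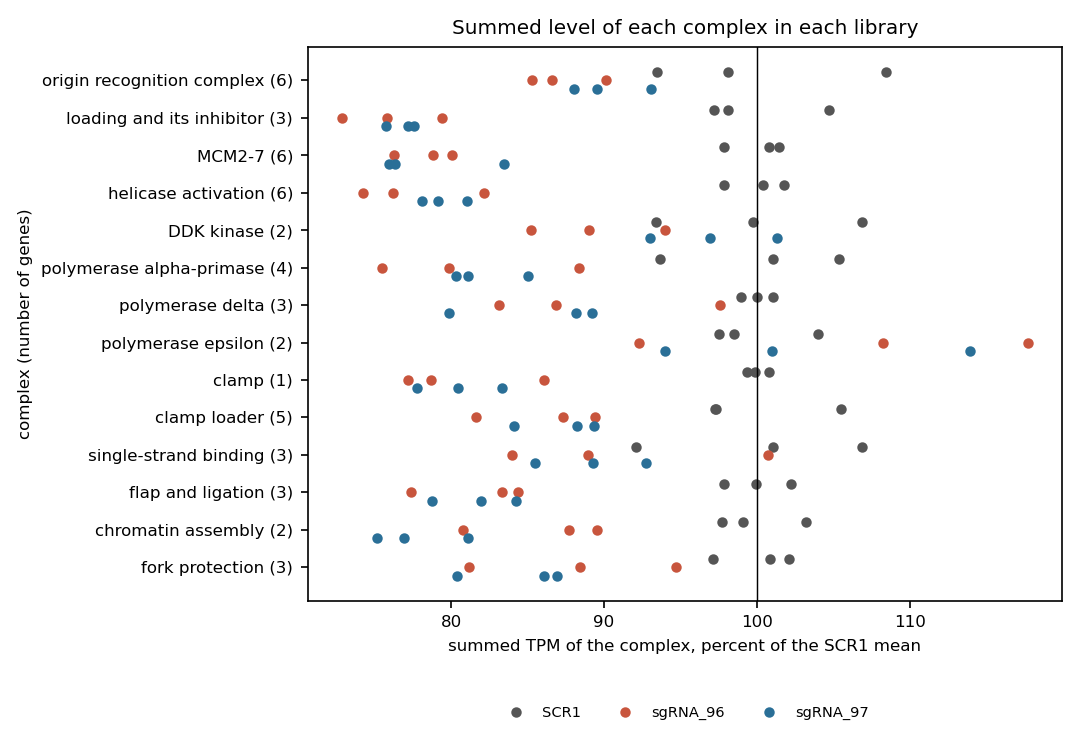
Summed TPM of the genes of each complex in each library, as a percentage of the SCR1 mean of that complex, with each library as a point. The loading factors, MCM2-7 and helicase activation lie between 72.9 and 83.5% of the SCR1 mean in all KO libraries, while the kinase, polymerase epsilon and single-strand binding points overlap the controls.

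Each guide was then compared with SCR1 on its own, and both comparisons share the same 3 control libraries. With sgRNA_96 30 of the 49 genes fell and 0 rose, against 5.41% of all tested genes that fell, and the median log2 fold change was -0.29. With sgRNA_97 33 fell and 0 rose, against 7.76%, with a median of -0.25. GINS2 had log2 fold changes of -0.50 (adjusted p = 3.88e-05) with sgRNA_96 and -0.49 (3.88e-05) with sgRNA_97. The corresponding values were -0.51 (0.000135) and -0.47 (0.000266) for CDC6, -0.40 (0.00028) and -0.42 (0.000159) for MCM2, and -0.33 (0.000702) and -0.32 (0.000683) for PCNA. POLE did not pass the test with either guide alone (0.13, adjusted p = 0.13, and 0.13, 0.0987). With a gene length offset each guide had 19 genes that fell, against 1.77% of all tested genes with sgRNA_96 and 2.83% with sgRNA_97, and by limma on log2(TPM + 1) each had 16, against 1.26% and 2.40%. All 6 MCM2-7 genes fell with each guide, and the kinase and single-strand binding genes did not pass the test with either.

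Compared directly, sgRNA_97 and sgRNA_96 differed at 0 of the 49 genes by edgeR's quasi-likelihood test at an adjusted p under 0.05, against 0.0208% of all tested genes, and also at 0 by DESeq2. At an unadjusted p under 0.05 there was 1 gene, MCM6, with a log2 difference of 0.12 (95% interval 0.0098 to 0.22, unadjusted p = 0.0343). Its 3 libraries with sgRNA_97 (216, 205 and 206 CPM) lay above its 3 with sgRNA_96 (186, 196 and 197 CPM). The widest differences were -0.21 (95% interval -0.43 to 0.0093, unadjusted p = 0.0592) for TIPIN and 0.15 (95% interval -0.027 to 0.33, unadjusted p = 0.0912) for CDC7. For PCNA the difference was 0.0043 (95% interval -0.10 to 0.11, unadjusted p = 0.932) and for GINS2 0.0089 (95% interval -0.11 to 0.13, unadjusted p = 0.874). These intervals bound the size of a difference, and a p that misses the threshold does not show that the guides act alike.

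The transcripts behind the gene sums were examined for changes in use. The most abundant transcript in SCR1 was also the most abundant in KO for 47 of the 49 genes. Over the 49 genes it held 30.8% to 99.7% of the gene's TPM in SCR1 (median 63.6%). The exceptions were RPA3 and TIPIN. The main TIPIN transcript held 51.4 ± 0.817% (SD, n = 3) of the TIPIN TPM in SCR1 and 39.8 ± 12.1% (SD, n = 6) in KO, the largest shift of the 49 genes. Of the 9 genes whose main transcript held over 90% of the TPM in SCR1, MCM2, MCM6, GINS2, PCNA, FEN1 and CHAF1A had a lower TPM of that transcript in all 6 KO libraries than in all controls. RPA2 had it in 5, CDC7 in 3 and ORC5 in 0. The share of all transcripts with such a separation was not computed. Shares of transcripts rest on Salmon's division of reads and were not tested.

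Genes outside the 49 that belong to the same process were lower as a group as well. This list and those of E2F and RB regulators and of G2 and mitosis are not independent checks. They were chosen with earlier results of these data known. Of 32 other replication genes 18 fell and 0 rose, against 10.6% and 10.1% of all tested genes, with a median log2 fold change of -0.23 against 0.00 over all tested genes. The largest falls there were -0.54 (adjusted p = 0.001) for DSCC1, a subunit of an alternative clamp loader, -0.44 (adjusted p = 3.28e-05) for PCLAF, a PCNA-binding protein, and -0.39 (adjusted p = 0.000303) for RNASEH2A, the catalytic subunit of RNase H2. Of 21 E2F and RB regulators 10 fell and 3 rose (median -0.18), against 10.6% and 10.1% of all tested genes, so that the share that rose was near that of all genes. The largest falls were -0.51 (adjusted p = 3.3e-05) for MYBL2, a transcription factor of the cell cycle, -0.50 (adjusted p = 0.0172) for CCNE1, which encodes cyclin E1, and -0.33 (adjusted p = 5.68e-05) for CDK2, the S-phase kinase that cyclin E and cyclin A activate. The 3 that rose were RB1, RBL2 and TFDP2, with log2 fold changes of 0.15 (adjusted p = 0.037), 0.15 (adjusted p = 0.0422) and 0.17 (adjusted p = 0.0409). Their KO values overlapped the controls, and they were named after their values were seen.

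Genes of G2 and mitosis moved with the replication genes. Of 20 such genes 14 fell and 0 rose, against 10.6% and 10.1% of all tested genes, and their median log2 fold change was -0.17 against 0.00. The largest falls were BIRC5, which encodes survivin, at -0.29 (adjusted p = 0.000808), FOXM1, a transcription factor of G2, at -0.26 (adjusted p = 0.00131), and PLK1, a mitotic kinase, at -0.24 (adjusted p = 0.00868). Their part in the fall of the replication genes was not tested. Markers of other cell types were examined in every library. Of the T cell markers CD3D, CD3E and CD3G were at 0 counts in all 9 libraries, CD2 was at 0 in SCR1 and at most 0.0486 CPM in KO, and TRAC was called lower (-0.24, adjusted p = 0.00994, 52.5 to 54.4 CPM in SCR1 and 40.96 to 50.3 CPM in KO). Of the myeloid markers ELANE was at 0 counts, CD14 and LYZ were under 0.6 CPM, CSF1R did not pass the test, and MPO was called higher (1.08, adjusted p = 0.000894, 2.57 to 2.89 CPM in SCR1 and 4.12 to 7.11 CPM in KO). The 5 erythroid markers were at 0 counts, and of the 5 stromal markers COL1A1 alone was detected, at most at 0.535 CPM. The part of TRAC and MPO in these results was not tested.

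Genes fell both with and without the promoter motif. The 21 genes with an E2F-type match in a RefSeq window had a median log2 fold change of -0.29, and 18 of them fell. The 21 genes with a window but no match had a median of -0.24, and 16 of them fell. ORC1, FEN1, CDC45 and ORC6 were among the large falls without a match in these windows, and CDC7, ORC3 and POLE had a match and did not fall. The 25 genes with a CCAAT box had a median of -0.28 and the 17 without one -0.29. Across the 49 genes the log2 fold change and the log2 TPM in SCR1 had a Pearson's r of -0.22 and a Spearman's rho of -0.13, a description only, since all points come from the same 9 libraries.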

How the data were processed

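RNA-seq was performed on 9 libraries of HAL-01, 3 per guide, on day 13. Per the study's methods, reads were processed with the nf-core/rnaseq pipeline, aligned to GRCh38 with STAR and quantified with Salmon 1.10.1. The authors deposited estimated counts and TPM (a length-corrected share of transcripts) for 252835 transcripts, all of which matched GENCODE 44, and 87.8% of the counts above 0 were not whole. Whether counting used strand is not given in the sources used here.

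Transcripts were summed per gene and estimated counts rounded. Genes were filtered with filterByExpr (minimum count 10), scaled by TMM and tested with edgeR 4.0.16 (R 4.3.3) by the quasi-likelihood test, with Benjamini-Hochberg adjustment over all 14436 genes at 0.05. KO against SCR1 used all 6 KO libraries as a group, and the guides were compared in a fit with 3 groups. CPM are estimated counts scaled to TMM library size. The biological coefficient of variation was 0.0724. Fits were tested on simulated data. Alternatives were DESeq2 1.42.0, its size factors, no filter, a gene length offset, limma 3.58.1 on log2(TPM + 1), the replicate block, a fit with 3 groups and leaving out each library. Fits without both KO libraries numbered 1 and with GC or length trend offsets were chosen after seeing the data.

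The genes and lists were chosen with earlier results of these data known. Values in every library are given for the 12 called genes with the largest change in each direction and the 4 uncalled genes with the largest change, and PCNA was added after its values were seen. The other lists are given by counts and the 3 largest called changes. 1 of the B lineage markers is not reported here. Promoter sequences come from RefSeq.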

Additional observations from a re-analysis of the deposited data

Results flagged for a closer look

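CDC6 in sgRNA_97 replicate 1, at 66.1 CPM, lay apart from the other 5 KO libraries, at 56.7 to 58.8 CPM, by 0.776 of the range of the 6. MEF2C in the same library, at 553 CPM, lay apart from the others, at 495 to 510.2 CPM, by 0.736 of the range. The limit for 6 samples is 0.625. These were 2 of 50 values examined, of which chance alone gives about 2.5, or 1 in 20 groups.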

How the results depend on the processing

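The count of replication genes called in KO was 40. It was 40 by DESeq2, 27 with a gene length offset, 27 by limma on log2(TPM + 1), 32 to 39 without 1 library and, chosen after seeing the data, 43 with a GC offset. Of these, 39 fell by DESeq2, 27 with the gene length offset, 27 by limma, 32 to 38 without 1 library and 42 with the GC offset. The share of all tested genes that fell was 11.5%, 5.17%, 4.36%, 4.93 to 13.1% and 14.6% in these fits. With sgRNA_96 the 30 calls became 19 with the gene length offset and 16 by limma, 25 to 32 without 1 library, and 43 (42 of them falls) with the GC offset, against 1.77%, 1.26%, 2.17 to 7.14% and 10.1% of all tested genes that fell. With sgRNA_97 the 33 calls became 19, 16, 23 to 35 and 42 (41 of them falls), against 2.83%, 2.40%, 3.06 to 9.05% and 11.4%. The cause was not tested. The direct comparison of the guides gave 0 calls in every fit. All 39 genes that fell stayed negative in all 19 alternatives. The log2 fold change of MEF2C passed the threshold by DESeq2, at -0.12 (adjusted p = 0.0265), and, in fits chosen after seeing the data, at -0.13 (adjusted p = 0.0164) without both KO libraries numbered 1, -0.16 (adjusted p = 0.00276) with a GC offset and -0.14 (adjusted p = 0.02) with a length trend offset. Without 1 library it was -0.14 to -0.11, and of these planned fits only that without sgRNA_97 replicate 1 passed the threshold (adjusted p = 0.0143). Genes that were not called changed sign, on the log2 scale, as follows. ORC2 was -0.0077 with the GC offset. ORC5 was -0.0014 with the gene length offset, -0.0027 by limma, -0.025 with the GC offset, -0.074 without both KO libraries numbered 1, and -0.050, -0.060 and -0.0085 without sgRNA_97 replicate 1, SCR1 replicate 1 and SCR1 replicate 4, in a range up to 0.12 over the fits without 1 library. DNA2 was 0.013 with the gene length offset and 0.013 by limma.

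Libraries with the same replicate number did not deviate together (correlations of deviations from -0.066 to 0.055), so the numbers were not taken to pair them. With the replicate number as a block 39 genes were called in KO (38 of them falls), 31 with sgRNA_96 and 32 with sgRNA_97. The share of all tested genes that fell was 10.5%, 5.26% and 7.48% in these fits. MEF2C had a log2 fold change of -0.12 (adjusted p = 0.0621) in KO with this block.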
